A study of Mus musculus with 2 samples.

Results

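The costimulatory receptors of the TNF receptor superfamily and the TRAF adaptors they recruit were examined in TGF-β-induced regulatory T (Treg) cells treated with the HDAC6 inhibitor Tubastatin A, abbreviated TSA. The genes were taken by symbol: the receptors Tnfrsf4, Tnfrsf9, Tnfrsf18, Tnfrsf1a, Tnfrsf1b, Tnfrsf25, Tnfrsf8 and Cd27, and the adaptors Traf1 and Traf2. They are 10 of the 23238 distinct gene symbols in the deposited tables, and 9 of the 10 had reads. Wild-type (WT) naïve CD4+ T cells from spleens of female C57BL/6 mice aged 7 to 10 weeks were activated through CD3 and CD28. They were kept for 1 day with TGF-β1 (5 ng/ml), IL-2 (1 ng/ml) and antibodies that block IFN-γ and IL-4, either with the vehicle DMSO (control) or with 10 μM TSA. RNA of 1 culture of each kind was sequenced. No difference given below therefore has a replicate check, and what TSA did cannot be told apart from what set the 2 cultures, or their library preparations, apart.

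TNF receptor superfamily members are cell surface receptors that are bound by trimeric ligands, many of them displayed by antigen-presenting cells. OX40 (Tnfrsf4), GITR (Tnfrsf18), CD137 (Tnfrsf9), CD30 (Tnfrsf8), CD27 and the TNF receptor TNFR2 (Tnfrsf1b) recruit TRAF proteins, which lead to NF-κB and survival signals after T cell activation. TNFR1 (Tnfrsf1a) and DR3 (Tnfrsf25) carry a death domain and first bind the adaptor TRADD. Treg cells are known for high surface levels of OX40, GITR and TNFR2.

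In these cells Tnfrsf4 was the most abundant of the 10 transcripts and differed little between control and TSA-treated Treg cells, whereas its neighbour Tnfrsf18 was 1.20-fold higher with TSA. Tnfrsf1b, Traf1 and Traf2 were lower, at 0.606, 0.645 and 0.653 of the control level, and Tnfrsf9 and Cd27 were lower by smaller amounts. Tnfrsf1a was 1.29-fold higher from a low level, Tnfrsf25 differed by no more than counting error, and Tnfrsf8 had no read in either library. None of the 9 genes with reads differed by more than 2-fold, where 2.78% of the genes with at least 100 normalized counts on average did.

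The libraries held 10846246 (control) and 10432698 (TSA) reads on genes, recovered from the deposited log2 values. QuantSeq, the library kit used, samples only the 3′ end of polyadenylated RNA, so reads were not divided by transcript length. Levels set side by side between genes still depend on the annotation, the mapping filter and the strand rule. These are not given in the sources used here. A normalized count is the deposited value taken back from the log2 scale, and 1 read was worth 1.005 normalized counts with DMSO and 0.995 with TSA. The fold change is the deposited TSA value over the deposited control value, each with 1 normalized count added. Its 95% interval (Clopper-Pearson, exact) was taken from the reads and covers counting error only. A gene entered the comparison, with a threshold of 2-fold, if either library held 10 reads or more of it, which left 12164 genes. The markers of CD4+ T cells were high, with 2434 and 2549 reads of Cd4, and Foxp3 reads numbered 1633 with DMSO and 965 with TSA. The 7 CD4+ T cell markers summed to 16220 and 16575 reads and the 5 Treg markers to 12999 and 10710, of which 4 were lower with TSA by the interval. By the same rule 28% of all genes tested were lower, and 36.5% of those with at least 100 normalized counts on average. The part of the lower Treg marker level in the differences below was not tested. Markers of other cells were low. The 6 B cell markers summed to 15 reads in each library, with Pax5 at 0 in both. The 7 myeloid markers summed to 64 and 44 reads, the 3 NK cell markers to 47 and 41 with Klrb1c at 0 in both, the 2 CD8 markers to 80 and 87, and the 5 erythroid markers to 43 and 58.

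The 10 genes are protein-coding and lie on 3 chromosomes of GRCm38 (mm10) in the GENCODE M21 annotation, matched by symbol. On chromosome 4 there are 6 of the receptors: Tnfrsf1b (145213463 to 145246870), Tnfrsf8 (145267137 to 145315164), Tnfrsf9 (150914562 to 150946102), Tnfrsf25 (152115934 to 152120119), Tnfrsf4 (156013843 to 156016612) and Tnfrsf18 (156026164 to 156028895). Cd27 (125232622 to 125237010) and Tnfrsf1a (125349362 to 125362484) lie on chromosome 6, and Traf2 (25517982 to 25546940) and Traf1 (34941750 to 34961772) on chromosome 2. Tnfrsf4 and Tnfrsf18 are adjacent, with 9551 bases between them, and Tnfrsf1b and Tnfrsf8 have 20266 bases between them. Whether reads were counted by strand is not given in the sources used here. This bears on Tnfrsf9, whose end lies within Camta1 on the other strand (120 and 118 reads), on Cd27, which lies within Vamp1 on the other strand (70 and 90 reads), and on Tnfrsf18, which lies within the antisense gene Gm16008.

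Promoter windows from RefSeq (GRCm38.p6), from 250 bases before to 50 bases after an annotated start, were found for all 10 genes, in 12 windows. They were searched on both strands for the NF-κB consensus, for the AP-1 motif TGANTCA and for the GC box GGGCGG, because TRAF signals end on NF-κB and AP-1 factors. Windows of 4 receptors are shown. The first 2 are the windows that held both the NF-κB consensus and the AP-1 motif, and they belong to Tnfrsf9 (chr4:150927749-150928048, plus strand, the second of its 2 windows) and Tnfrsf8 (chr4:145315115-145315414, minus strand), of which the former had 3071 and 2295 reads and the latter none. The other 2 belong to the adjacent genes Tnfrsf4 (chr4:156013445-156013744, plus strand) and Tnfrsf18 (chr4:156026072-156026371, plus strand), which differed in their change with TSA. The Tnfrsf4 window is set by a RefSeq start upstream of the GENCODE start at 156013843, and it ends before that base. Sequences run 5′ to 3′ along the gene, and capitals mark matches to the NF-κB consensus or the AP-1 motif.
Tnfrsf9: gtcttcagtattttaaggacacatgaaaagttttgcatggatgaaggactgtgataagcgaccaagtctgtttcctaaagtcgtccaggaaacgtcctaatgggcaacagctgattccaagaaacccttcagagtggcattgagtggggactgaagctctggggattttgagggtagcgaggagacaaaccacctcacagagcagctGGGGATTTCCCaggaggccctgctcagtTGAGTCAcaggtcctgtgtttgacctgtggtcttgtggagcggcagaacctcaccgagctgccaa
Tnfrsf8: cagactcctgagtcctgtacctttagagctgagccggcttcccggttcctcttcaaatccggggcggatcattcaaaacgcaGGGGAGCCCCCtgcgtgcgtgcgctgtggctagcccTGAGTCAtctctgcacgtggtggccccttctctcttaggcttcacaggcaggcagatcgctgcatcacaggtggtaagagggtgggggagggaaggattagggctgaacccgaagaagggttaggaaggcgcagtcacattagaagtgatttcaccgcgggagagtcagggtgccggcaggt
Tnfrsf4: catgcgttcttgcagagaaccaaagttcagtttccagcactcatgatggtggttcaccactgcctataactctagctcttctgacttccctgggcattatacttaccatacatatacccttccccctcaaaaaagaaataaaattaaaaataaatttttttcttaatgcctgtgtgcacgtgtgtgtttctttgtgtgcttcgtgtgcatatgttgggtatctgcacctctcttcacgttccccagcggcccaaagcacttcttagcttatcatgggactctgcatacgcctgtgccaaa
Tnfrsf18: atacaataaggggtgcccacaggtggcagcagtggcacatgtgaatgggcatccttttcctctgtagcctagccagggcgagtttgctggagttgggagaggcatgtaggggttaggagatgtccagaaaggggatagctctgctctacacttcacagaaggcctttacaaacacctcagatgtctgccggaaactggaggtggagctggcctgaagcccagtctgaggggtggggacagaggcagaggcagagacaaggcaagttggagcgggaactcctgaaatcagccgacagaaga

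With position 0 as the first base of the transcript, the Tnfrsf9 window held overlapping NF-κB matches at -43 to -34 and -42 to -33 and the AP-1 motif at -15 to -9. In the Tnfrsf8 window the overlapping NF-κB matches stood at -168 to -159 and -167 to -158 and the AP-1 motif at -132 to -126. Tnfrsf25 also had NF-κB matches in 1 of its windows, so that 3 of the 12 windows held the NF-κB consensus and 2 the AP-1 motif, while 5 held the GC box. Of all 32851 RefSeq windows, 8.46% held the NF-κB consensus, 7.81% the AP-1 motif and 35.7% the GC box. In the windows of the 10 genes no match to one motif overlapped a match to another. A match is a string of letters in a window, and binding was not measured.

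Among the receptors that bind TRAF proteins directly, Tnfrsf4 had 7648 normalized counts with DMSO and 7439 with TSA. Its level was above that of 98.8% of the genes tested, and its fold change of 0.973 (95% interval 0.942 to 1.004) included no change. Its direction was not fixed: on the log2 scale the difference was -0.04 in the deposited values and 0.030 after scaling by total reads. OX40 is a receptor that T cells display after activation.

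Tnfrsf18, next to Tnfrsf4 on the chromosome, had 3244 normalized counts with DMSO and 3893 with TSA, a fold change of 1.20 (1.15 to 1.26). GITR, its product, is induced by activation and is high on Treg cells. By flow cytometry after a longer culture, the paper found similar surface GITR with and without TSA, whereas the values here are of RNA. The ratio of Tnfrsf18 to Tnfrsf4 reads was 0.424 with DMSO and 0.523 with TSA. This ratio does not depend on how the libraries are scaled, and it was 1.23 times higher with TSA (conditional exact 95% interval 1.17 to 1.31). Thus the adjacent genes, both high in these cells, differed in their change by more than counting error.

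Tnfrsf9, which encodes CD137, a receptor induced by T cell receptor signals, had 3086 normalized counts with DMSO and 2284 with TSA, a fold change of 0.740 (0.701 to 0.781). In the control library Tnfrsf18 and Tnfrsf9 stood close together, with a ratio of reads of 1.05, and in the TSA library the ratio was 1.70. The change of this ratio was 1.62-fold (1.51 to 1.74), the largest of the 3 ratios compared among Tnfrsf18, Tnfrsf4 and Tnfrsf9. For Tnfrsf4 against Tnfrsf9 it was 1.31 (1.23 to 1.4003). With the pairs of TNF receptors and of TRAF adaptors given further on, 5 ratios were compared, and their intervals are not adjusted for that number.

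Tnfrsf1b encodes TNFR2, the TNF receptor of activated and regulatory T cells that has no death domain. It had 2391 normalized counts with DMSO and 1448 with TSA, a fold change of 0.606 (0.567 to 0.647), which was the lowest value among the 9 genes with reads. All 9 genes had a mean normalized count above 100, and of the 8188 genes tested that reached this mean 3.31% had a lower log2 fold change than Tnfrsf1b.

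Cd27, a receptor already present on naïve T cells, had 707 normalized counts with DMSO and 570 with TSA, a fold change of 0.807 (0.722 to 0.903). Tnfrsf8, the gene of CD30, was listed at 0 in both libraries. A floor of 3 reads corresponds to a share of 0.0172% of the reads of the 8 receptors with DMSO and 0.0185% with TSA, and the upper limits of the exact binomial 95% intervals were 0.0211% and 0.0227%. These limits cover counting error only. The annotation and the mapping filter behind the 0 are not given in the sources used here, so no difference in Tnfrsf8 could be assessed.

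**Figure D1:**
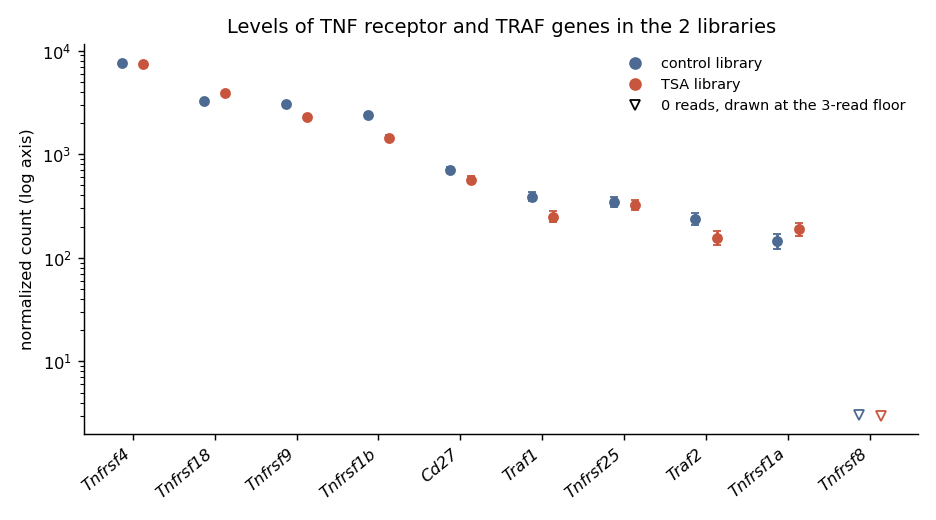
Normalized counts (log axis) of the 10 genes in the control and the TSA library, 1 library each, with 95% Poisson intervals for counting error that are often smaller than the points. The order runs from Tnfrsf4, with 7648 and 7439 normalized counts, to Tnfrsf1a, with 146 and 188, and open triangles mark Tnfrsf8, which had 0 reads and is drawn at the floor of 3 reads.

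Among the 8 receptor genes taken here, those with a death domain were the least abundant of the ones with reads. Tnfrsf1a, which encodes TNFR1, had 146 normalized counts with DMSO and 188 with TSA, a fold change of 1.29 (1.03 to 1.61). Tnfrsf25, which encodes DR3, a receptor of naïve and regulatory T cells, had 348 and 323 normalized counts, and its fold change of 0.930 (0.797 to 1.09) included no change. Both TNF receptors bind TNF, and their balance differed between the libraries. There were 16.4 reads of Tnfrsf1b for each read of Tnfrsf1a with DMSO and 7.70 with TSA, so that the ratio with TSA was 0.469 of the control ratio (0.372 to 0.592). Fewer cells of a type and less RNA per cell cannot be told apart in such bulk samples.

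Both TRAF adaptors were lower with TSA. Traf1, an adaptor that is itself induced by NF-κB, had 388 normalized counts with DMSO and 250 with TSA, a fold change of 0.645 (0.547 to 0.757). Traf2, the adaptor that brings the cIAP ubiquitin ligases to the receptors, had 238 and 155 normalized counts, a fold change of 0.653 (0.529 to 0.801). The ratio of Traf1 to Traf2 reads was 1.63 with DMSO and 1.61 with TSA. The change of that ratio was 0.988-fold, and its interval of 0.758 to 1.29 leaves room for a difference of either sign. Together the adaptors had 623 reads with DMSO and 407 with TSA, a fold change of 0.647 (0.570 to 0.734), whereas the 8 receptors together had 17482 and 16224 reads, with a fold change of 0.919 (0.899 to 0.939).

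**Figure D2:**
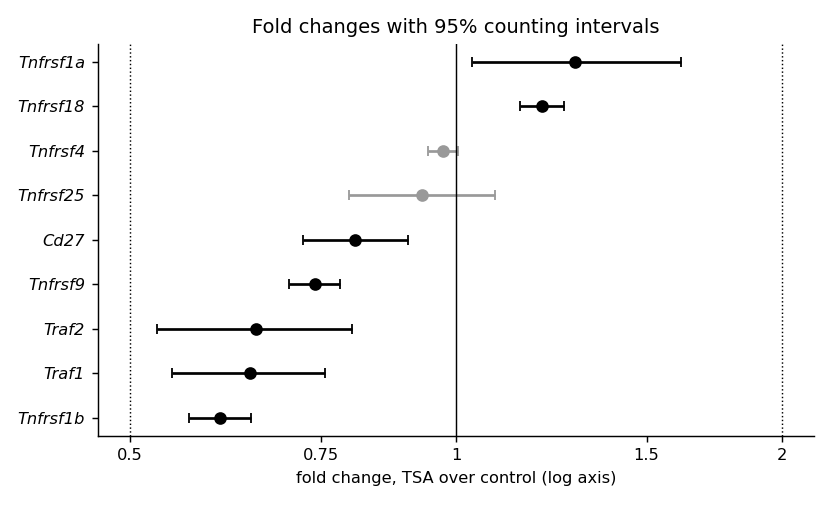
Fold change (TSA over control, log axis) of the 9 genes with reads, with exact 95% counting intervals from 1 library per condition, where grey marks intervals that include no change and dotted lines mark 2-fold. The values run from 0.606 for Tnfrsf1b to 1.29 for Tnfrsf1a, and no gene reaches either dotted line.

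Set against all genes, these differences were moderate in size. None of the 9 tested genes passed 2-fold, where 14.7% of all genes tested did (11.5% higher and 3.15% lower) and 2.78% of the genes whose mean reached 100 normalized counts (1.48% higher and 1.31% lower). With a threshold of 1.5-fold, 3 of the 9 were lower with TSA (Tnfrsf1b, Traf1 and Traf2) and none was higher, where 27.1% of all genes tested passed, 8.34% lower and 18.7% higher. Of the genes whose mean reached 100 normalized counts, a group chosen after the levels were seen, 11.9% passed, 5.9% lower and 6.05% higher. In that group 4.76% of the genes had a lower log2 fold change than Traf1, 5.17% than Traf2 and 11.8% than Tnfrsf9, while 81.9% had a lower value than Tnfrsf18 and 87.5% than Tnfrsf1a. The interval excluded no change for 7 of the 9 genes, with 2 higher and 5 lower. It did so for 56.1% of all genes tested (28.1% higher and 28% lower) and for 59.9% of those whose mean reached 100 normalized counts (23.4% higher and 36.5% lower), so at this depth passing it does not set a gene apart. The balance over all genes depended on the scaling, with 3416 genes higher and 3406 lower as deposited and 4096 and 2631 after scaling by total reads. The median log2 fold change of the 9 was -0.31, that of all genes tested was 0.015, and that of the genes whose mean reached 100 normalized counts was -0.06.

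**Figure D3:**
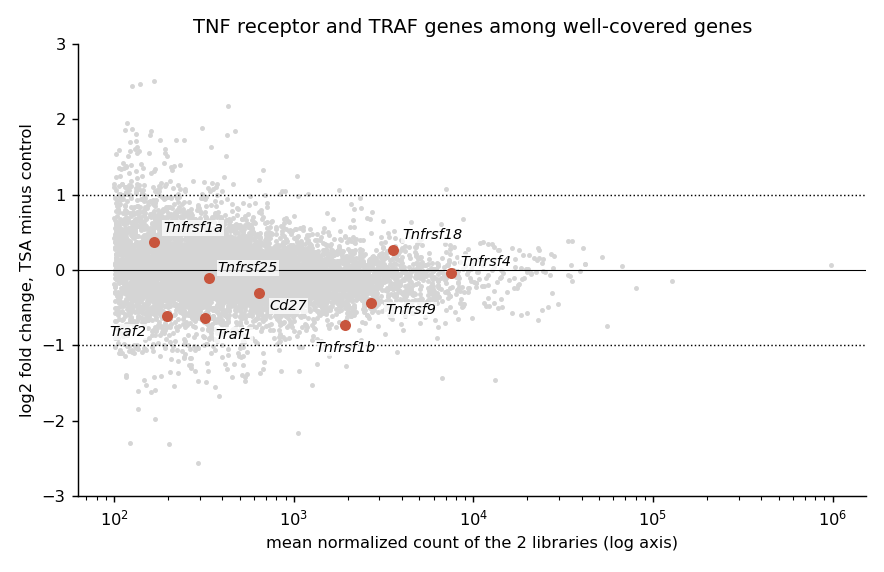
Log2 fold change (TSA minus control) against the mean normalized count of both libraries (log axis) for the 8188 genes with a mean of at least 100, with the 9 TNF receptor and TRAF genes in red and dotted lines at 2-fold. Tnfrsf1b, Traf1 and Traf2 lie in the lower part of the cloud at their levels, and Tnfrsf4 lies close to 0.

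The order of the levels was nearly the same in both libraries. In the control library it ran from Tnfrsf4 through Tnfrsf18, Tnfrsf9, Tnfrsf1b, Cd27, Traf1, Tnfrsf25 and Traf2 to Tnfrsf1a. Traf1 and Tnfrsf25 did not differ beyond counting error there (ratio of reads 1.12, 95% interval 0.962 to 1.29), and neither did Tnfrsf18 and Tnfrsf9 once the rounding of the deposited values is counted, as the lower bound of their ratio was 1.0001. In the TSA library Tnfrsf25 stood above Traf1 (ratio 1.29, 1.09 to 1.53), and Tnfrsf1a stood above Traf2 with a ratio of 1.21 that did not differ from 1 beyond counting error (0.975 to 1.51).

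The make-up of the receptor reads differed between the libraries, with larger shares of Tnfrsf18 and Tnfrsf4 and smaller shares of Tnfrsf9 and Tnfrsf1b with TSA. Tnfrsf4 took 43.5% of the reads of the 8 receptors in the control library (exact binomial 95% interval 42.8 to 44.3) and 46.1% in the TSA library (45.3 to 46.8). The share of Tnfrsf18 was 18.5% (17.9 to 19.0) and 24.1% (23.5 to 24.8), the largest gain in percentage points, 5.65. Tnfrsf9 and Tnfrsf1b, the receptors with the next highest shares, took less with TSA. Tnfrsf1b went from 13.6% (13.1 to 14.1) to 8.97% (8.53 to 9.42), and Tnfrsf9 from 17.6% (17.0 to 18.1) to 14.1% (13.6 to 14.7). Cd27 took 4.02% and 3.53%, Tnfrsf25 1.98% and 2.003%, and Tnfrsf1a 0.829% and 1.16%. For Tnfrsf4, Tnfrsf18, Tnfrsf9, Tnfrsf1b and Tnfrsf1a the intervals of the libraries did not overlap, and for Cd27 and Tnfrsf25 they did. As shares add up to a fixed total, a gain of 1 gene lowers the share of the others. A share can also rise without a rise of the gene itself, and the fold change of Tnfrsf4 included no change.

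**Figure D4:**
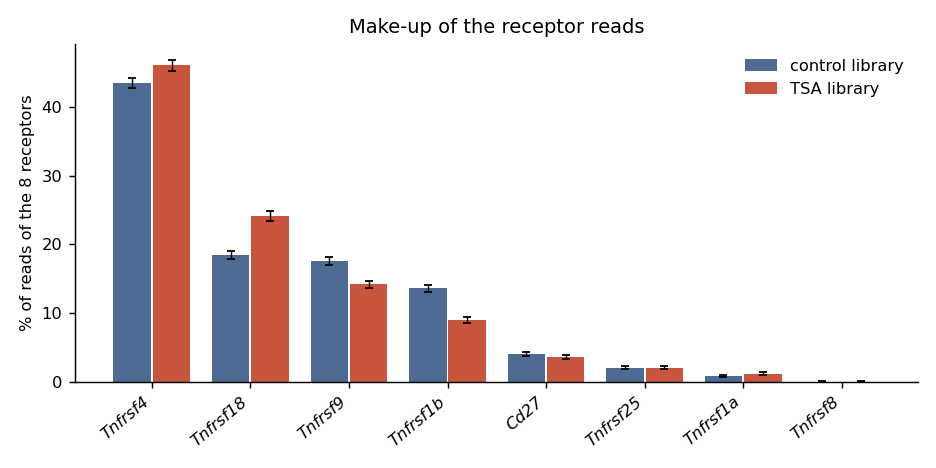
Share of each receptor gene among the reads of the 8 receptor genes (percent) in the control and the TSA library, 1 library each, with exact binomial 95% intervals. Tnfrsf18 goes from 18.5% to 24.1% of the receptor reads, and Tnfrsf1b from 13.6% to 8.97%.

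The ligands were examined as a list of 18 TNF superfamily genes, and 10 of these reached the minimum of reads. The interval excluded no change for 7 of them, with 3 higher and 4 lower. It did so for 56.1% of all genes tested (28.1% higher and 28% lower). Beyond 2-fold there was 1 gene higher and 1 lower, where 11.5% of all genes tested were higher and 3.15% lower. Tnfsf11, which encodes RANKL, a ligand made by activated T cells, had 195 reads with DMSO and 92 with TSA, a fold change of 0.470 (0.361 to 0.602). Fasl, the ligand of the death receptor Fas, had 17 and 38 reads, with a fold change of 2.15 (1.22 to 4.18). The ligands of TNFR1 and TNFR2 differed in opposite directions. Tnf had 1125 reads with DMSO and 1504 with TSA, a fold change of 1.32 (1.22 to 1.43), whereas Lta (lymphotoxin-α) had 7095 and 5622 reads, with a fold change of 0.785 (0.758 to 0.813). Ltb, its partner in the membrane-bound lymphotoxin, had 982 and 687 reads, with a fold change of 0.693 (0.627 to 0.764), and Tnfsf14 (LIGHT) had 413 and 372 reads, with a fold change of 0.892 that included no change (0.773 to 1.03). The ligands of OX40 and GITR had few reads, which are not read as absence of the transcripts, for the reason given for Tnfrsf8. Tnfsf4 had 0 reads and 2 reads, and Tnfsf18 had 1 read in each library. Tnfsf9, the ligand of CD137, had 3 and 2 reads. For the ligands of the other receptors, there were 160 and 112 reads of Tnfsf8 (for CD30), 11 and 10 of Cd70 (for CD27) and 7 and 6 of Tnfsf15 (for DR3). These 6 were named for the receptors they bind, after their values were seen.

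Of 20 other TNF receptor superfamily genes, 13 were tested, and the interval excluded no change for 2 that were higher and 3 that were lower. That was 38.5% of those tested, where the share over all genes tested was 56.1%. Fas had 138 reads with DMSO and 249 with TSA, a fold change of 1.78 (1.45 to 2.22), and Tnfrsf10b, which encodes a receptor for the death ligand TRAIL, had 401 and 468 reads, with a fold change of 1.16 (1.01 to 1.32). The values of Tnfrsf26 (0.839, 0.687 to 1.023) and Tnfrsf21 (0.947, 0.739 to 1.21) included no change. Beyond 2-fold, Tnfrsf13c, the receptor for the B cell survival factor BAFF, had 53 reads with DMSO and 23 with TSA, or 0.440 of the control level (0.251 to 0.713). The B cell markers, at 15 reads in both libraries, differed among themselves, with 11 and 4 reads of Cd79b, 1 and 5 of Cd79a and 0 and 5 of Ms4a1, and their part in this difference was not tested. Ngfr had 13 reads with DMSO and 0 with TSA. With the TSA library set at the floor of 3 reads it was 4.38-fold lower, and the exact 95% interval of its fold change ran up to 0.325. There were 4 genes of this list with no read in either library.

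Other TRAF and TRAF-binding genes differed in both directions. Of the 12 genes 11 were tested, none passed 2-fold, and the interval excluded no change for 4 that were higher and 3 that were lower (6 and 1 after scaling by total reads, under which Traf6 was among the higher genes). As deposited the interval thus called 63.6% of those tested. Over all genes tested the shares were 14.7% past 2-fold and 56.1% by the interval. Traf7 had a fold change of 1.48 (1.33 to 1.64), Traf3, which restrains the alternative NF-κB pathway, of 1.15 (1.03 to 1.28), Traf6 of 1.05 (0.965 to 1.14) and Traf4 of 0.783 (0.706 to 0.868). Traf5, named after its values were seen because it binds many of the same receptors as Traf2, had a fold change of 1.49 (1.25 to 1.80). The median log2 fold change of the list was 0.13, or 0.196 under that scaling.

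The receptor-proximal signalling list held 24 genes, all tested, with 3 higher and 11 lower by the interval (7 and 8 after scaling by total reads) and 1 beyond 2-fold. As deposited the interval called 58.3% of the list, near the 56.1% of all genes tested, of which 14.7% passed 2-fold. Casp8, the initiator caspase of death receptors, had 579 reads with DMSO and 246 with TSA, a fold change of 0.422 (0.361 to 0.489). The genes of the list with the most reads differed less: Tab2 had a fold change of 0.917, Rbck1, a subunit of the linear ubiquitin ligase complex, of 0.872, Tnip1 of 0.894 and Map3k7, the kinase TAK1, of 1.22. The intervals of Tab2 and Tnip1 included no change after scaling by total reads. The median log2 fold change of the list was -0.09, or -0.019 under that scaling.

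Among 11 NF-κB subunits and inhibitors none passed 2-fold, and the interval excluded no change for 3 that were higher and 5 that were lower (3 and 3 after scaling by total reads). As deposited the interval called 72.7% of the list, where it called 56.1% of all genes tested, of which 14.7% passed 2-fold. Nfkbia, the inhibitor IκBα and the most abundant of them, had a fold change of 0.951 (0.927 to 0.976), and Nfkbib, Nfkb2 and Nfkb1 had 0.828, 0.809 and 0.909. After scaling by total reads the fold change of Nfkbia was 0.999 (0.974 to 1.025), and the intervals of Nfkbia and Nfkb1 included no change. The 3 higher genes, named after their values were seen, were Relb (1.23, 1.13 to 1.33), Bcl3 (1.17, 1.06 to 1.29) and Nfkbid (1.11, 1.04 to 1.20) as deposited. They were also higher by the interval after scaling by total reads. The median log2 fold change of the list was -0.07, or -0.0017 under that scaling.

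**Figure D5:**
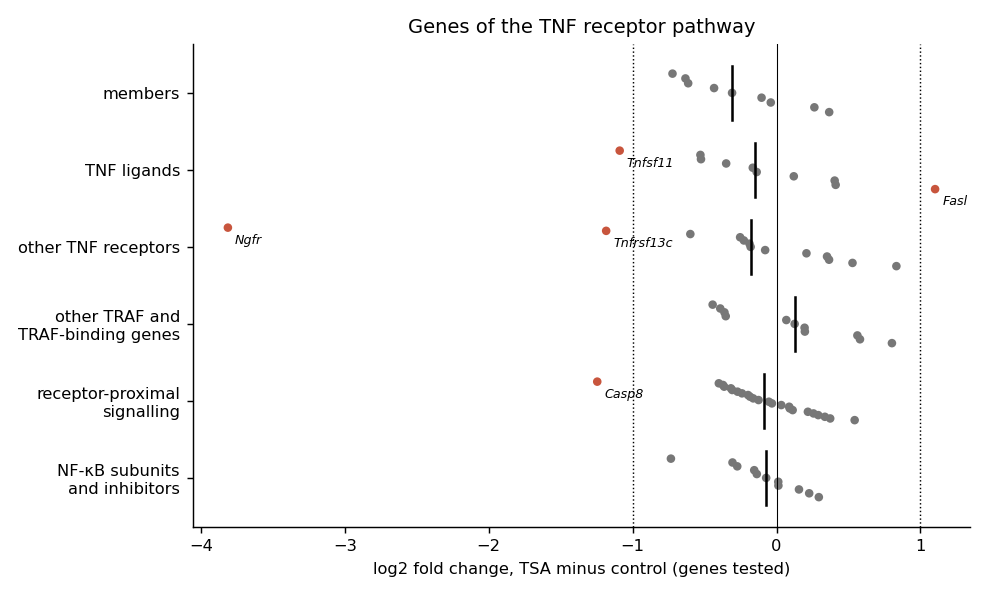
Log2 fold change (TSA minus control) of the tested genes of each list, 1 point per gene, with a black bar at the median of the list, dotted lines at 2-fold and names for genes beyond them. The position of Ngfr, which had no read in the TSA library, is set by the 1 normalized count added, and the 9 TNF receptor and TRAF genes, in the top line, all lie between the dotted lines.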

How the data were processed

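RNA-seq was performed on 1 control and 1 TSA-treated culture of Treg cells after 1 day, so there was 1 library per condition and no test across samples was possible. QuantSeq libraries were sequenced and analysed by the authors with the ExDEGA program. The submitters' processing notes name Bowtie2, bedtools and mm10, and the normalization method is not given in the sources used here. The deposited values are log2 of a normalized count plus 1, for 23282 rows. Taken back from the log2 scale they were multiples of 1.00495 (control) and 0.9951 (TSA). Of the values of 1 to 300 reads, 99.95% and 99.86% were within 0.1 of an integer. In the control library 1940 rows with no read were listed slightly above 0 and were read as 0. The 3 decimals deposited leave an error of 0.035%, or 2.6 reads for Tnfrsf4 in the control library.

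Log2 fold changes were obtained by subtracting the control from the TSA value. Exact intervals of 95% rest on the recovered reads and cover counting error only. PCR copies could not be told apart, so the intervals may be too narrow even for counting error. The floor was 3 reads. Genes that reached 10 reads in either library were tested. The steps were tested on simulated data. The members and gene lists were chosen with earlier results of these data known. Named genes were the members and, of each related list, genes past 2-fold and the 4 with the most reads, with Foxp3, Il2ra and Hdac6 for context, of which Foxp3 is given, and marker genes. Others are marked in the text. Alternatives were tried for the scaling, the pseudocount, the filter on low counts, the threshold and the denominator of the shares. Python 3.11.15, numpy 2.4.6, pandas 2.3.3, scipy 1.17.1 and matplotlib 3.10.9 were used.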

Additional observations from a re-analysis of the deposited data

How the results depend on the processing

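No paired analysis was possible because each condition had 1 library, for which reason no replicate was left out either. With libraries scaled by trimmed means of M-values, the median of ratios, total reads or the upper quartile, and under pseudocounts of 0.1 and 5, none of the 9 tested members passed 2-fold. The interval excluded no change for 2 higher and 5 lower members under each of these 4 scalings and each filter, while over all genes the counts by the interval moved with the scaling, to 4096 higher and 2631 lower with total reads. Scaling by total reads added 0.070 to all log2 fold changes, which turned Tnfrsf4 to 0.030 and put Tnfrsf18 at 0.33. For the gene lists the scalings were compared after the data were seen. With total reads and with the upper quartile alike, 7 receptor-proximal genes were higher and 3 NF-κB genes lower by the interval, and with total reads 1 TRAF-binding gene was lower. The median log2 fold change of the other TNF receptor genes was -0.11 with total reads and that of the ligands -0.084, and for the receptor-proximal and NF-κB genes the upper quartile gave -0.046 and -0.029. With a threshold of 1.5-fold, 3 members were lower, 2279 of all genes were higher and 1014 lower, and 1 other TNF receptor gene (higher), 1 TRAF-binding gene (higher) and 1 NF-κB gene (lower) passed where none had before. Without a filter, 2817 of all genes were higher and 1200 lower past 2-fold, with 2 other TNF receptor genes, 3 ligands and 1 TRAF-binding gene higher and 3 other TNF receptor genes and 3 ligands lower. With at least 10 reads in both libraries the numbers for all genes were 524 higher and 223 lower, and 1 other TNF receptor gene was lower. With a minimum of 50 for the mean normalized count they were 278 and 141, and with at least 100, a minimum chosen after the data were seen, 121 and 107. At either minimum 0 ligands were higher and 0 other TNF receptor genes lower, and with a pseudocount of 5 also 0 ligands were higher. At the minimum of 100 the interval excluded no change for 1916 higher genes. With all 28 TNF receptor genes in the denominator, the share of Tnfrsf18 was 17.1% with DMSO and 22.2% with TSA, and that of Tnfrsf1b 12.6% and 8.25%. With 1 library per condition, few reads limit the values of most ligands of the receptors, whether depth alone sets the 0 of Tnfrsf8 was not tested, and the missing replication limits all values.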

Other observations

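Tnfrsf14, which encodes HVEM, a receptor for the ligand LIGHT, was listed at 0 in both libraries. The annotation and the mapping filter behind this 0 are not given in the sources used here, and it is not read as absence of the transcript. This gene was singled out after its values were seen. Birc2 and Birc3, which encode the cIAP ubiquitin ligases that bind TRAF proteins, had fold changes of 1.30 (1.12 to 1.498) and 0.773 (0.660 to 0.901), with 95% counting intervals in parentheses. Nfkbie, which encodes the NF-κB inhibitor IκBε, had one of 0.601 (0.511 to 0.704). Birc2, Birc3 and Nfkbie were also named after their values were seen.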
